A study of Mus musculus with 62 samples.

Results

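The 10 genes described here are core members of the circadian clock, chosen by symbol from each of the 4 deposited expression tables: Arntl (also called Bmal1), Clock, Per1, Per2, Per3, Cry1, Cry2, Nr1d1, Nr1d2 and Dbp. All 10 were present in each table, which list 29239, 21885, 18197 and 17896 gene symbols over 62 RNA-seq libraries of mouse muscle and muscle cells. The study asked what ChREBP, a glucose-sensing transcription factor encoded by Mlxipl, does in skeletal muscle at rest, under hypoxia and on fructose.

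The mammalian clock is a feedback loop of transcription. ARNTL and CLOCK bind E-box DNA as a pair and activate the Per and Cry genes, whose proteins then block that pair until they are degraded. A second arm runs through the nuclear receptors REV-ERB alpha and beta (Nr1d1 and Nr1d2), which repress Arntl, while Dbp, a PAR bZIP factor, carries the signal to output genes through D-boxes. In a tissue with a running clock, Arntl transcripts peak at roughly the opposite time of day to those of Dbp, Nr1d1 and the Per genes, so the level of each gene depends on the hour at which the tissue was taken. Skeletal muscle has its own clock, which is known to govern genes of glucose use and contraction.

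In the first experiment, gastrocnemius (GC) and soleus (SOL) were taken from untreated F/F mice, whose Mlxipl exon 8 is floxed with no Cre, and from ChMKO littermates, in which MCK-Cre deletes that exon in striated muscle (5 mice per genotype, both muscles from each). In the second, GC was taken from F/F and ChMKO mice (4 per group) that were untreated (normoxia), held for 2 weeks in a chamber simulating about 5500 m of altitude, or fed a high-fructose diet (HFrD) for 3 months. After hypoxia the mice were moved back to standard housing for sampling. In the third, GC of wild-type C57BL/6J mice was injected with an AAV9 vector, labelled AAV-CON or AAV-MLXIPL, whose CMV promoter is not limited to muscle, and was taken after 14 days (5 libraries per vector, numbered 1, 3, 4, 7 and 8 in both). In the fourth experiment, C2C12 cells, a mouse myoblast line, carried a vector control or ChREBP as puromycin-selected stable lines. They were taken on day 7 of differentiation (4 libraries each, which the methods call independent biological replicates). The study's legends for other assays of these cells define such replicates as independent culture wells. If the libraries were wells too, their p-values cover spread between wells only. In either case, ChREBP and other differences between the lines cannot be told apart. The mice were males of 8 to 10 weeks unless stated otherwise, under 12 h of light and 12 h of dark. The clock time of tissue collection is not given in the sources used here, so its part in every result below was not tested.

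Mlxipl, the targeted gene, followed the labels in each experiment except that the 2 genotypes overlapped in SOL. Its level, in FPKM (fragments scaled to transcript length and to the mapped fragments of the library), was 12.5 to 18.5 in ChMKO and 20.4 to 30.3 in F/F GC, and 29.96 to 46.1 against 43.8 to 64.1 in SOL. In the hypoxia and fructose experiment it was 2.38 to 4.49 in ChMKO and 7.76 to 10.8 in F/F, with AAV-MLXIPL 52.9 to 101 against 10.3 to 12.3, and in C2C12 12.8 to 13.8 against 0 to 0.02. Skeletal muscle markers (Ckm, Acta1, Mb and Des, 3 of the 4 found in the AAV table) were abundant in every tissue group, with a summed level of 12157 FPKM or more. Depth was 14473170 to 23460515 reads per library in the hypoxia and fructose table, where whole reads could be recovered, was estimated as 15600000 to 20200000 in the AAV table and 16400000 to 19800000 in the first, and is unknown for C2C12. One feature of the hypoxia and fructose table bears on several results. Its 24 libraries fell into 2 sides by how each library's deviation from the mean profile went with transcript length across 9313 genes, with correlations of -0.35 to -0.19 in 12 libraries (side A) and of 0.25 to 0.37 in the other 12 (side B). The libraries of this experiment are given in the order of their label numbers. Side A held all normoxic and all hypoxic ChMKO libraries and the first and second library of both the normoxic and the hypoxic F/F group, and side B held all HFrD libraries and the third and the fourth of those F/F groups. The source of this split is not given, and the tables were normalised separately, so levels are compared only within a table.

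Of the 9 members with a promoter window (250 bases before to 50 after the start, RefSeq, GRCm38.p6, Per2 having none), 4 held a clock motif and Clock, Cry2, Nr1d1, Nr1d2 and Dbp held none of those searched. The motifs searched on both strands were the E-box CACGTG, bound by ARNTL and CLOCK, the D-box TTANGTAA, bound by DBP, and the ROR element TAGGTCA, bound by REV-ERB and ROR receptors. Of 32851 windows of this length in the genome, 7.15% held the E-box, 2.32% the D-box and 2.61% the ROR element. The stretches below show which arm of the loop each promoter carries letters of, with the motif in capitals. Per3 at chr4:151044771-151044915 (minus strand) held the D-box at -205 and -158, and Arntl at chr7:113207530-113207559 (plus strand) the ROR element at +31, counting the start base as +1. Cry1 at chr10:85185064-85185159 (minus strand) held the E-box at -60, and Per1 at chr11:69098738-69098833 (plus strand) at -166. A match is a description of letters and not of binding.
Per3: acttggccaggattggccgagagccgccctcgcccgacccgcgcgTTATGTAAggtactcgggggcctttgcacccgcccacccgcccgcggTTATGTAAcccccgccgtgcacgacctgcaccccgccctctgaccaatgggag
Arntl: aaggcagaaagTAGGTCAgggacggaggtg
Cry1: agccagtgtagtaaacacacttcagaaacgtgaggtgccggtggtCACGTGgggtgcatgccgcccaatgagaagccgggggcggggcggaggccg
Per1: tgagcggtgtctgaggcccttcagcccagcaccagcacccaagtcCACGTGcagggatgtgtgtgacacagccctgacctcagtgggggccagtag

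In the AAV experiment the clock genes spread widely between libraries of 1 vector group. In GC injected with AAV-CON, Arntl, the activator, was at 2.25, 4.18, 4.23, 12.79 and 12.23 FPKM in libraries 1, 3, 4, 7 and 8. With AAV-MLXIPL it was at 1.90, 3.99, 3.80, 13.05 and 12.25 FPKM in the libraries of the same numbers. Libraries 7 and 8 were thus far above the other three under either vector, and each number had almost the same level under both. Dbp, the output factor, ran the other way, at 41.27, 27.18, 27.93, 5.73 and 5.97 FPKM with AAV-CON and at 43.48, 26.09, 31.84, 6.26 and 5.54 FPKM with AAV-MLXIPL. Numbers 7 and 8 were lowest, and number 1, lowest in Arntl, was highest in Dbp under both vectors.

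**Figure D1:**
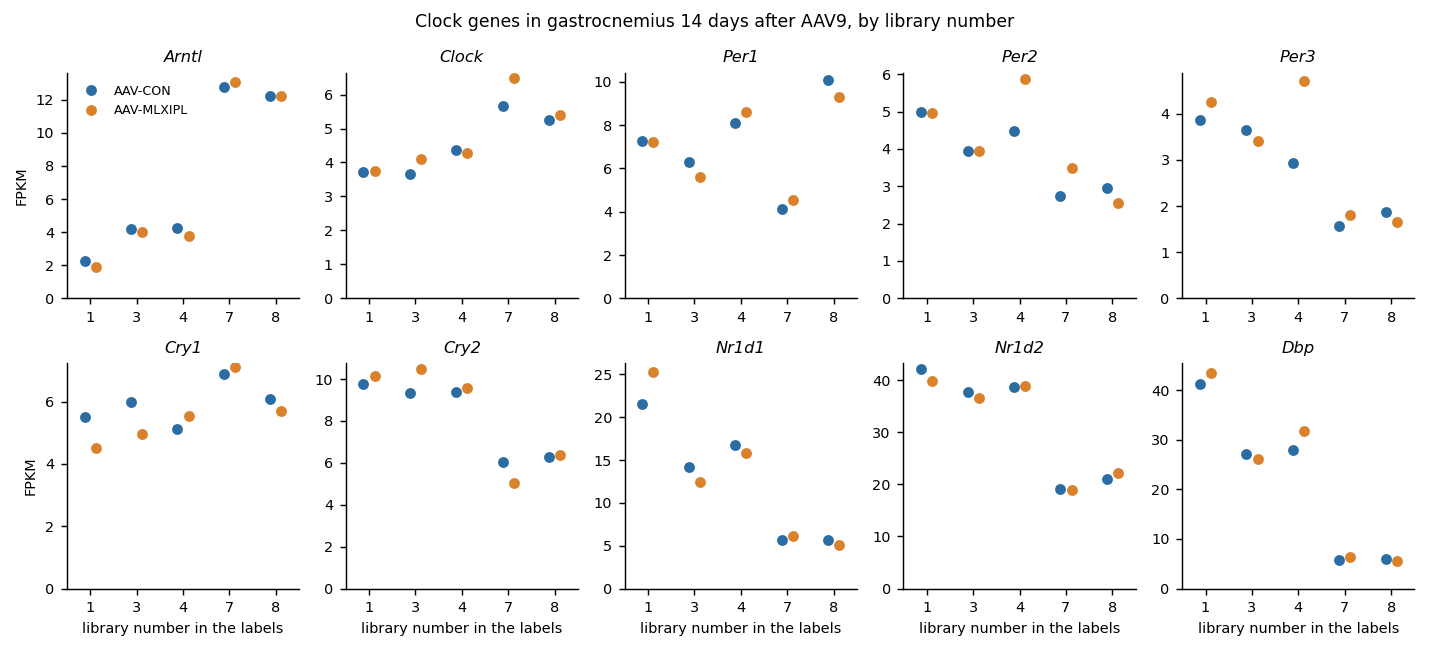
Level of each clock gene in GC 14 days after AAV injection, in FPKM on a linear axis from 0, by the library number in the labels, with 1 point per library and a colour for each vector. Libraries 7 and 8 stand above 12 FPKM for Arntl and below 6.3 FPKM for Dbp under both vectors, and the 2 vectors lie close together at each number for these 2 genes but apart at number 4 for Per3 (2.94 and 4.72 FPKM) and Per2 (4.49 and 5.86 FPKM).

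Most of the remaining members split by the same numbers. Nr1d1 was at 12.4 to 25.3 FPKM in libraries 1, 3 and 4 of both vectors and at 5.07 to 6.10 FPKM in 7 and 8, and Nr1d2, its paralogue, at 36.5 to 42.1 and 18.9 to 22.2 FPKM. Among the repressors, Per3 was at 2.94 to 4.72 against 1.56 to 1.87 FPKM, Per2 at 3.94 to 5.86 against 2.54 to 3.49 FPKM and Cry2 at 9.32 to 10.5 against 5.03 to 6.35 FPKM. Clock, the partner of ARNTL, followed Arntl at 3.67 to 4.38 against 5.26 to 6.49 FPKM. Cry1 (4.52 to 5.98 against 5.69 to 7.10 FPKM) and Per1 (5.59 to 8.60 against 4.13 to 10.1 FPKM) overlapped. Thus 8 of the 10 members did not overlap between these numbers, beside 9.78% of 10811 genes, but the numbers were compared because the members' values differed, so no test is given and nothing is read from that share. Nfil3, which competes with DBP at D-boxes, was at 6.92 to 12.5 FPKM in libraries 1, 3 and 4 and at 25.2 to 32.7 FPKM in 7 and 8, and Npas2, a stand-in for CLOCK, at 0.014 to 0.055 and 0.254 to 0.628 FPKM. The PAR bZIP factors Tef and Hlf were at 68.1 to 79.5 against 52.0 to 56.5 FPKM and at 4.80 to 6.89 against 2.41 to 2.82 FPKM. What a number stands for is not stated.

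Between the vectors no clock gene passed the test. With limma on log2(FPKM + 1), 0 of the 10 members changed at an adjusted p (Benjamini-Hochberg over all genes tested) below 0.05 and 0 had an unadjusted p below 0.05, while 0.00925% of 10811 genes changed and 2.85% had such a p. The differences of AAV-MLXIPL from AAV-CON ran from -0.08 (Cry1) to 0.12 (Per3) on the log2 scale, with a median of -0.01 beside 0.02 over all genes. Fitted with the number as a block, still 0 members changed, and the difference in Arntl was -0.06 ± 0.05 (SE) and in Dbp 0.04 ± 0.05 (SE). None of the partner, turnover, output, glucocorticoid, temperature or immediate early lists had a gene that changed here.

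In C2C12 cells 3 members were higher in the ChREBP line than in the control line, each by a small amount. Per1, a repressor that also responds quickly to outside signals, was at 11.14, 11.56, 12.27 and 11.67 FPKM with the vector control and at 13.69, 13.37, 14.11 and 13.39 FPKM with ChREBP. Per2 was at 3.19, 3.36, 3.60 and 3.03 FPKM and at 3.76, 3.92, 3.82 and 3.70 FPKM. In both genes each ChREBP library lay above each control library. Dbp was at 5.50, 6.40, 6.73 and 6.82 FPKM against 6.72, 7.22, 8.11 and 8.16 FPKM, and the groups overlapped. The log2 differences were 0.21 ± 0.04 (SE) for Per1 (limma, adjusted p = 0.00186), 0.16 ± 0.05 for Per2 (limma, adjusted p = 0.0414) and 0.22 ± 0.07 for Dbp (limma, adjusted p = 0.0436). These 3 of 10 stand beside 30.5% of 11971 genes that changed in the cells, and the 2 members whose groups did not overlap beside 31.3%, both shares near the background. Per1 kept its call in all 14 alternative fits, Per2 in 4 of 13 and Dbp in 8 of 14, and 1 call was left without control library 1 or 2 or ChREBP library 2 or 3.

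The other 7 members in the cells had log2 differences from -0.09 (Nr1d1) to 0.12 (Cry1), and Arntl (12.9 ± 0.31 and 13.2 ± 0.78 FPKM, mean ± SD, n = 4) and Clock (13.6 ± 0.73 and 13.8 ± 0.53 FPKM) were nearly level. For Arntl the libraries of a C2C12 group had a coefficient of variation of 5.9% or less, while it reached 74.8% in the AAV groups. Summed marker levels differed between the 2 lines as well. Fast fibre markers summed to at most 323 FPKM in control and 398 to 416 FPKM in ChREBP libraries, slow fibre markers to 393 to 430 and 546 to 584 FPKM, skeletal muscle markers to 890 to 937 and 1015 to 1056 FPKM and fibroblast markers to 743 to 763 and 592 to 602 FPKM, with every gene of these lists found. Their part in the clock result was not tested. Of 11 partners 2 rose and 1 fell, a share near the 30.5% of all genes, among them Bhlhe40 (0.14) and Npas2 (-0.40 on the log2 scale). Of the casein kinase and ubiquitin ligase genes and others that set PER and CRY turnover, 1 of 9 changed, Usp2, a deubiquitinase, which rose by 0.25. Of the immediate early genes, which like Per1 respond quickly to serum, 6 of 7 rose, beside 16.3% of all genes, led by Nr4a1 (10.5 to 31.5 FPKM, log2 difference 1.499).

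In mice on chow, no clock gene passed the test between ChMKO and F/F in either muscle. In GC, 0 of 10 members changed (limma, with 1 at an unadjusted p below 0.05, Nr1d1, against 4.63% of all genes) beside 0.0236% of 12724 genes, and the median difference was 0.08 beside 0.01 over all genes. In SOL, 0 of 10 changed (limma, with 2 at an unadjusted p below 0.05, Cry1 and Nr1d1, against 9.74% of all genes) beside 0.0225% of 13348 genes, with a median of 0.01 beside -0.02. One GC library stood apart in cell markers. In GC of F/F mouse 69 the myelin gene Mbp was at 35.2 FPKM, the highest of the 10 GC libraries. Without this library still 0 members changed (limma) between genotypes in GC or between the muscles of F/F mice. The mice of each genotype differed widely. Dbp in GC was at 5.43, 5.06, 8.61, 18.95 and 29.01 FPKM in F/F mice 57, 58, 69, 70 and 71, and at 10.55, 4.82, 7.95, 5.51 and 5.205 FPKM in ChMKO mice 59, 60, 61, 72 and 74. F/F mice 70 and 71 lay above all ChMKO mice and mouse 58 lay among the lowest. Nr1d1, the member with the lowest p, was at 57.49, 30.01, 55.62, 66.68 and 37.15 FPKM in F/F and at 20.03, 37.42, 21.80, 42.15 and 36.64 FPKM in ChMKO GC, a log2 difference of -0.63 that overlapped between genotypes. In SOL its difference was -0.84 and that of Cry1 0.39.

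GC and SOL, a fast and a slow muscle of the same mice, were compared within each genotype. The fits, for the members and for the lists, were not paired by mouse unless a block is named. In F/F mice 0 of 10 members changed between the muscles (limma, 0 at an unadjusted p below 0.05, against 56.7% of all genes) beside 50.4% of 13235 genes. In ChMKO mice 1 of 10 changed beside 57.9% of 13080 genes. That was Nr1d1, the REV-ERB alpha gene, at 20.03, 37.42, 21.80, 42.15 and 36.64 FPKM in GC and at 15.83, 20.64, 13.18, 21.54 and 15.94 FPKM in SOL of the mice numbered 59, 60, 61, 72 and 74. It was lower in SOL in each of these 5 mice, and the ranges of the muscles overlapped only slightly. The log2 difference was -0.78 ± 0.21 (SE; limma, adjusted p = 0.0079), and in F/F mice it was -0.57 ± 0.31, which passed with the mouse as a block (limma, adjusted p = 0.00947) or without SOL of mouse 70 (adjusted p = 0.0392). Without GC of mouse 60 or SOL of mouse 59, Clock was a further call in ChMKO mice. Nr1d1 shares 263 of its 3077 exon bases with Thra on the opposite strand, and whether the counting used strand is not stated, so their reads there cannot be told apart. The same holds for 539 of 2993 exon bases of Dbp (with Sphk2), 295 of 6320 of Cry2 and 33 of 7523 of Arntl. The test of a different genotype effect in the 2 muscles called 0 of 10 members (limma, 0 at an unadjusted p below 0.05, against 5.99% of all genes) beside 0.00759% of 13176 genes.

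Of the 10 loop partners, 5 changed between the muscles in F/F mice beside the 50.4% of all genes, a share near the background, and 4 of them fell from GC to SOL. Bhlhe41, an E-box repressor, fell by 1.42, Rora, the activator of Arntl that opposes the REV-ERBs, by 0.80, Tef by 0.72 and Hlf by 0.55 on the log2 scale. Of 8 turnover genes 2 fell and none rose in F/F mice, Csnk1d, the kinase that marks PER proteins for degradation, by 1.19 (61.7 to 26.2 FPKM), and Fbxw11 by 0.36. In ChMKO mice 5 partners changed beside 57.9% of all genes and 4 of them fell, with Bhlhe41 at -1.55. There 5 of the 8 turnover genes changed, of which Csnk1d (-1.32), Fbxw11 (-0.46) and Csnk1e (-0.25) fell and 2 rose, among them Gsk3b (0.35). A median of 0.18 over all genes in F/F and 0.15 in ChMKO mice means that SOL values sat higher on the whole, beside a member median of 0.06 and -0.08, and rescaling of the libraries brought it to 0.02 in both. The muscles hold different mixes of cells (fast fibre markers summed to 31442 FPKM or more in GC and to 16486 FPKM or less in SOL), and in bulk tissue fewer cells of a type and less RNA per cell cannot be told apart.

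Of the 10 members, 5 deviated together in both muscles of a mouse. After the genotype means were removed, Per2 in GC and SOL of the same mouse correlated at r = 0.93 and rho = 0.95 over 10 mice (exact permutation within genotype, two-sided, p = 0.00118, adjusted 0.0118 over the 10 members). The same test passed for Arntl (r = 0.84, rho = 0.65), Dbp (r = 0.85, rho = 0.73), Per3 (r = 0.78, rho = 0.67) and Nr1d1 (r = 0.77, rho = 0.82), each at an exact permutation adjusted p of 0.0257. By rho Per2 passed (exact permutation adjusted p = 0.0104), and these other 4 did not (0.0604 to 0.114). It did not pass for Clock (r = 0.12), Per1 (0.76), Cry1 (0.71), Cry2 (0.38) or Nr1d2 (0.64). Across 10484 genes the median of the same r was 0.06, with quartiles of -0.21 and 0.32. Among F/F mice, mouse 71 had the lowest F/F Arntl in GC (2.099 FPKM) and SOL (1.97 FPKM), and mouse 59 had the lowest ChMKO Arntl (4.95 and 2.59 FPKM). Each relation was also taken without the 2 mice farthest from the median of that gene in GC. Without mice 71 and 59 r was 0.34 for Arntl and 0.80 for Per2. It was 0.63 for Per3 without mice 69 and 59, 0.68 for Dbp without 71 and 70 and 0.70 for Nr1d1 without 58 and 59, and 0 of the 10 members then passed. The SOL library of F/F mouse 69 carries another number in its title, and without that mouse 4 members passed (Arntl, Per2, Nr1d1 and Dbp).

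**Figure D2:**
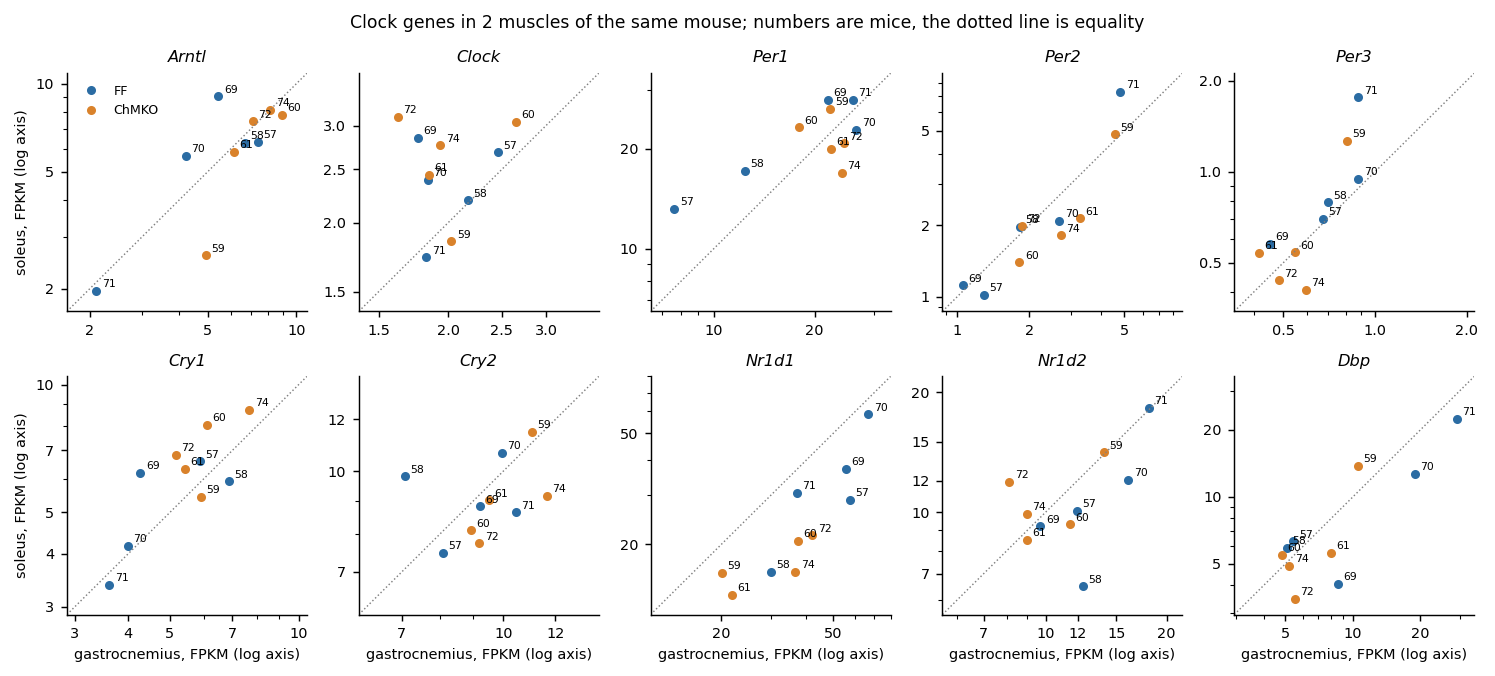
Level of each clock gene in SOL against GC of the same mouse on chow, both in FPKM on log axes, with 1 numbered point per mouse, a colour per genotype and a dotted line of equality. Mice 71 and 59 are the lowest for Arntl in SOL and the highest for Per2 in both muscles, and Nr1d1 lies below the line in all 10 mice.

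Between hypoxic and normoxic ChMKO mice 4 of the 10 clock genes differed, in a comparison whose libraries all lay on side A. The hour at which each group was sampled is not given, and its part was not tested. Arntl was at 4.93, 5.63, 5.74 and 6.66 FPKM in the normoxic ChMKO libraries and at 2.86, 2.56, 2.52 and 2.84 FPKM in the hypoxic ones. Cry1, the strongest CRY repressor, was at 9.74, 8.48, 8.36 and 7.12 FPKM and fell to 2.71, 4.56, 4.29 and 5.54 FPKM. All hypoxic values of both genes lay below all normoxic ones. Per1 was at 6.69, 9.51, 12.21 and 8.38 FPKM in normoxia and at 15.20, 15.13, 19.70 and 18.90 FPKM in hypoxia. Nr1d2 was at 14.98, 15.70, 15.85 and 15.11 FPKM and rose to 27.10, 28.91, 20.83 and 23.72 FPKM. For these 2 genes all hypoxic values lay above all normoxic ones.

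The log2 differences in ChMKO mice were -0.86 ± 0.10 (SE) for Arntl (limma, adjusted p = 0.00841), -0.86 ± 0.16 for Cry1 (adjusted p = 0.0425), 0.86 ± 0.16 for Per1 (adjusted p = 0.0417) and 0.66 ± 0.10 for Nr1d2 (adjusted p = 0.0267). Beside these 4 of 10 members, 0.890% of 10674 genes changed, and a count model on the recovered reads (voom in limma) also called 4. Groups did not overlap in 6 members (Arntl, Per1, Per3, Cry1, Nr1d1 and Nr1d2) beside 9.81% of all genes. The median member difference was 0.41 beside -0.03 over all genes. Of those that did not pass, Nr1d1 had 5.23, 18.21, 14.62 and 19.42 FPKM in normoxia and 26.16, 21.01, 27.24 and 23.96 FPKM in hypoxia, with the first normoxic library far below the rest (log2 difference 0.87 ± 0.32, adjusted p = 0.231 by limma). Dbp (3.47 ± 0.90 and 5.51 ± 0.99 FPKM, mean ± SD), Per3 (0.81 ± 0.24 and 1.44 ± 0.24 FPKM) and Per2 (2.32 ± 1.11 and 3.21 ± 0.72 FPKM) had positive differences of 0.55, 0.44 and 0.39, while Clock was at -0.25 and Cry2 at 0.05. Per1, Cry1 and Nr1d2 sat near the threshold. Of 14 alternative fits, Per1 kept its call in 6, Cry1 in 6 and Nr1d2 in 7, with none reversed in sign, and leaving out single libraries left 1 call (without the first, the second or the fourth normoxic or the first hypoxic library), 2 (without the third of either) or 3. Arntl kept its call in 12 of 13 and lost it with all libraries of the table in 1 fit (limma, adjusted p = 0.0706, over a range from 0.00589).

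Of the wider loop, 2 of 9 partners fell in the same comparison, Bhlhe41 (9.12 to 5.44 FPKM, log2 difference -0.66, adjusted p = 0.0349 by limma) and Nfil3 (56.9 to 36.0 FPKM, -0.66, adjusted p = 0.0267), and none rose. None of the turnover, output, glucocorticoid, temperature or immediate early genes changed. Slow fibre markers, for scale, summed to 5.99 to 125 FPKM in normoxic and 69.8 to 564 FPKM in hypoxic ChMKO libraries, and the myoblast markers Pax7, Myf5 and Myod1 to 14.5 to 34.5 and 3.15 to 10.8 FPKM. Red blood cell markers summed to 196 to 363 FPKM in normoxic and 286 to 760 FPKM in hypoxic libraries, and fibroblast markers to 171 to 316 and 124 to 193 FPKM. All genes of these 4 lists were found, and their part in the clock result was not tested.

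In F/F mice hypoxia changed 0 of 10 clock genes (limma, with 1 at an unadjusted p below 0.05, Per1, against 3.84% of all genes, and 0 by voom) beside 0% of 10738 genes. Arntl was at 5.54, 4.24, 1.57 and 1.99 FPKM in the normoxic F/F libraries and at 3.17, 3.31, 2.86 and 2.32 FPKM in the hypoxic ones. The normoxic values enclosed the hypoxic ones, and the 2 lower normoxic libraries were those of side B. Per1 was at 12.57, 10.75, 9.80 and 5.31 FPKM in normoxia and at 13.01, 21.58, 13.66 and 16.22 FPKM in hypoxia, a log2 difference of 0.72. It was the 1 member of 10 whose groups did not overlap, beside 3.04% of all genes. Within side A (2 libraries per group), Arntl differed by -0.47, Cry1 by -0.74, Per1 by 0.49 and Nr1d2 by 0.54, and within side B by 0.37, -0.17, 0.94 and -0.15, and 0 members were called in either. Arntl and Nr1d2 thus differed in sign between the sides. The test of a different response to hypoxia in the 2 genotypes called 0 of 10 members (limma, 1 at an unadjusted p below 0.05, against 1.23% of all genes) beside 0% of 10749 genes. The interaction in Arntl was -0.81 ± 0.31 (SE; limma, adjusted p = 1.00, unadjusted 0.0204), so the call in ChMKO and its absence in F/F mice do not show that the genotypes differed.

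**Figure D3:**
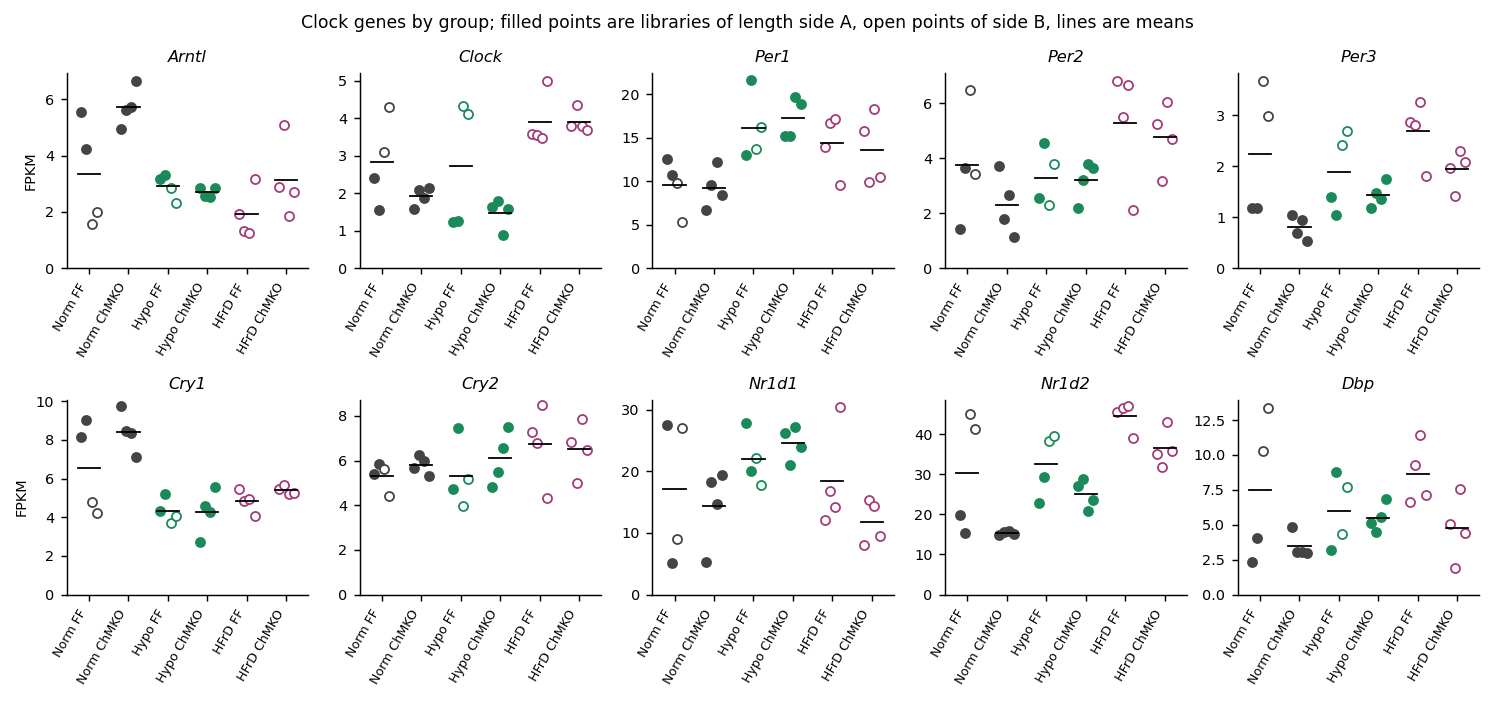
Level of each clock gene in GC by group of the hypoxia and fructose experiment, in FPKM on linear axes from 0, with 1 point per library, filled for side A and open for side B, and a line at each group's mean. The 4 hypoxic ChMKO points lie below the 4 normoxic ChMKO points for Arntl and Cry1 and above them for Per1 and Nr1d2, and in F/F groups open and filled points of Nr1d2 and Clock lie apart.

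The comparison of HFrD with chow in ChMKO mice is one in which diet and side cannot be told apart, since all 4 HFrD libraries lay on side B and all 4 chow libraries on side A. It shares its chow libraries with the hypoxia comparison. The HFrD mice had been fed for 3 months. Whether the chow mice were of the same age or cohort at sampling is not stated, and this was not tested. Here 6 of 10 members changed (6 by voom) beside 64.0% of 10731 genes, with Clock, Per2, Per3 and Nr1d2 higher and Arntl and Cry1 lower on HFrD, and the median was 0.39 beside -0.17 over all genes. Groups did not overlap in 4 members beside 57.2% of all genes. Nr1d2 was at 35.17, 31.74, 43.09 and 35.94 FPKM on HFrD against 14.98 to 15.85 FPKM, a log2 difference of 1.18 ± 0.08 (SE; limma, adjusted p = 3.75e-06). Clock differed by 0.75 ± 0.08 (limma, adjusted p = 4.02e-05) and Arntl by -0.75 ± 0.20 (adjusted p = 0.00833). Of these 6, Clock, Per3, Nr1d2, Arntl and Cry1 also lay apart by side among normoxic F/F libraries on chow, and Per2 (1.44 and 3.64 FPKM on side A, 3.42 and 6.47 FPKM on side B) overlapped. With 2 libraries per side and no share over all genes computed, nothing particular to the clock genes is read from this. In these mice Nr1d2 was at 15.45 and 19.94 FPKM in the side A and 41.28 and 45.07 FPKM in the side B libraries, and Arntl at 4.24 and 5.54 against 1.57 and 1.99 FPKM. Rora, by 2.08 the partner with the largest difference in the diet comparison, was at 3.75 and 4.66 FPKM on side A and 17.42 and 20.04 FPKM on side B of those F/F mice. Markers of other cells moved with this comparison too. Between chow and HFrD libraries of ChMKO mice, endothelial markers summed to 65.7 to 76.8 and 33.7 to 43.6 FPKM, fibroblast markers to 171 to 316 and 108 to 131 FPKM, the myoblast markers to 14.5 to 34.5 and 4.84 to 9.12 FPKM and red blood cell markers to 196 to 363 and 57.1 to 177 FPKM (3 of 3 genes found in each list). Skeletal muscle markers (4 of 4 found) went from 25560 to 30818 FPKM on chow to 16848 to 18557 FPKM on HFrD. The part of these in the clock result was not tested.

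In F/F mice the diet changed 0 of 10 members (limma, 0 at an unadjusted p below 0.05, against 23.6% of all genes, and 0 by voom) beside 0% of 10705 genes, with log2 differences from -0.52 (Arntl) to 0.67 (Nr1d2). With the side as a term those 2 differences were 0.02 and 0.04, and 0 members were called. The limit on age and cohort at sampling holds for the F/F mice too. The median member difference was 0.34 beside -0.10. The test of a different response to the diet between genotypes called 0 of 10 (limma, 0 at an unadjusted p below 0.05, against 10.3% of all genes) beside 0% of 10732 genes.

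Between genotypes in the same experiment no clock gene passed the test under any of the 3 conditions. In normoxia 0 of 10 changed (limma, with 3 at an unadjusted p below 0.05, Arntl, Per3 and Nr1d2, against 11.1% of all genes, and 0 by voom) beside 0.00922% of 10846 genes. Arntl was higher in ChMKO by 0.74, and Per3 and Nr1d2 lower by 0.77 and 0.80 on the log2 scale, but the differences came down to 0.20, -0.27 and -0.18 within side A. In hypoxia 0 of 10 changed (limma, 0 at an unadjusted p below 0.05, against 5.27% of all genes, and 0 by voom) beside 0.00941% of 10626 genes, from -0.48 (Clock) to 0.18 (Cry2). On HFrD, where all libraries lay on side B, 0 of 10 changed (limma, with 3 at an unadjusted p below 0.05, Per3, Nr1d2 and Dbp, against 7.36% of all genes, and 0 by voom) beside 0.0190% of 10513 genes. Dbp there was at 6.63, 9.26, 11.43 and 7.12 FPKM in the F/F and at 5.04, 1.91, 7.59 and 4.40 FPKM in the ChMKO libraries, a log2 difference of -0.82 ± 0.29 (SE; limma, adjusted p = 0.642). The second ChMKO library had both the lowest Dbp and the highest Arntl (5.10 FPKM) of its group.

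**Figure D4:**
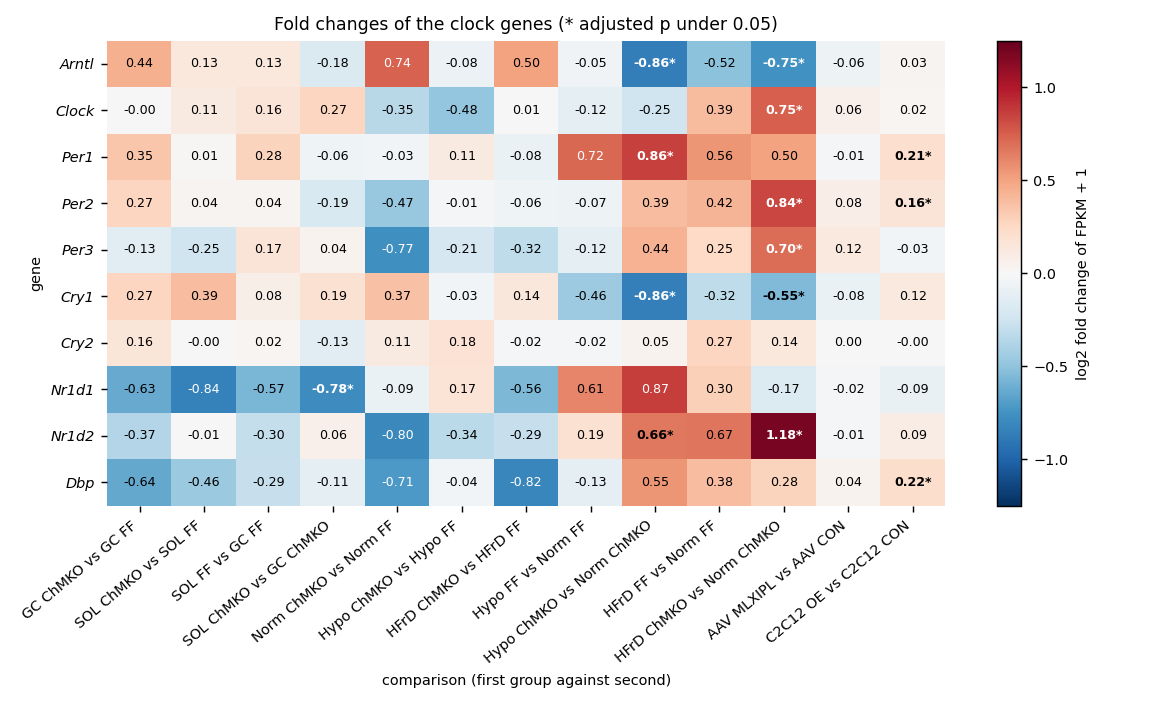
Log2 fold change of FPKM + 1 of each clock gene (vertical axis) in each of the 13 comparisons (horizontal axis, first group against second), as colour with the value printed in each cell and the calls marked. Calls lie in 4 of the 13 comparisons, with 4 members in ChMKO hypoxia, 6 in ChMKO HFrD, 3 in C2C12 and Nr1d1 between the muscles of ChMKO mice.

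How the members moved against each other between libraries of the same group was measured as the correlation of each with Arntl after removal of group means, in 45 relations (9 genes in 5 sets of libraries), over all of which p-values were adjusted. The relations of the AAV set, which are not given below, stayed in that adjustment. In GC on chow (10 libraries) Dbp ran opposite to Arntl, with r = -0.96 and rho = -0.96 (exact permutation within groups, two-sided, p = 0.000208, adjusted 0.00312). Without F/F 71 and ChMKO 59, the 2 libraries farthest from the median of Arntl, r was -0.92 and still passed (exact permutation adjusted p = 0.0335). Per2 also ran opposite to Arntl (r = -0.88, rho = -0.79, exact permutation p = 0.00458, adjusted 0.0121, and 0.0572 by rho, with r = -0.61 and an adjusted p of 0.273 without those 2). Per1, Per3, Cry2 and Nr1d2 had negative and Clock, Cry1 and Nr1d1 positive values that did not pass.

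In SOL of the same mice 5 relations passed. Per3 (r = -0.98, rho = -0.84), Per2 (r = -0.95, rho = -0.85) and Dbp (r = -0.92, rho = -0.79) ran opposite to Arntl, and Clock (r = 0.93, rho = 0.89) and Cry1 (r = 0.85, rho = 0.83) ran with it, at exact permutation adjusted p-values from 0.00391 to 0.00771. Without SOL libraries 71 (F/F) and 59 (ChMKO) the r values were -0.80, -0.62, -0.68, 0.71 and 0.65 in that order, and 0 of the 5 passed (exact permutation adjusted p from 0.117 to 0.273). The GC and SOL sets come from the same mice and are not independent of each other.

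In the 24 libraries of the hypoxia and fructose experiment 4 relations passed. Per3 (r = -0.85, rho = -0.82) had a permutation p of 1e-05, the smallest that 100000 resamples can give, and an adjusted p of 0.00045. Dbp (r = -0.82, rho = -0.75), Nr1d2 (r = -0.75, rho = -0.73) and Per2 (r = -0.74, rho = -0.60) passed the permutation test at adjusted p-values of 0.00511, 0.00804 and 0.00391. Without the first and the third normoxic F/F library, those farthest from the median of Arntl, r was -0.79 for Per3, -0.75 for Dbp, -0.65 for Nr1d2 and -0.61 for Per2, and all 4 still passed the permutation test (adjusted p from 0.0027 to 0.0338). Because normoxic F/F libraries of the 2 sides lay apart in Arntl, Per3, Dbp and Nr1d2, though not in Per2, the relation was also taken with side means removed. Per2 (-0.75), Per3 (-0.80), Dbp (-0.67), Cry2 (-0.70) and Clock (0.62) then passed the permutation test, and Nr1d2 (-0.44) did not. Nr1d1 (0.49) passed near the threshold (permutation adjusted p = 0.0423), in an adjustment that includes the AAV relations. Within side A alone (12 libraries) r was -0.80 for Per2, -0.49 for Per3, -0.35 for Dbp and 0.68 for Clock, and within side B (12 libraries) -0.82, -0.94, -0.81 and 0.76. Nr1d2 had 0.41 on side A and -0.93 on side B, and Cry2 -0.10 and -0.90, so the relation of neither held within both sides.

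Nr1d1, a REV-ERB gene like Nr1d2, had no relation to Arntl that passed in the mice without a vector when only group means were removed. The pass with side means removed (permutation adjusted p = 0.0423) lay near the threshold and rests on an adjustment that includes the AAV relations. Whether it holds without the AAV relations was not tested. The r of Nr1d1 with group means removed was 0.36 in GC and 0.12 in SOL on chow. It was 0.28 in the hypoxia and fructose libraries, and -0.10, 0.14 and 0.05 without the 2 farthest libraries of each set. Within side A it was 0.83 and within side B 0.49. In the AAV libraries its levels were low where Arntl was high, as given above. No relation to Arntl is given for the AAV set alone, since its libraries fall into 2 separate sets with fewer than 6 in one of them. In the cells 0 of 9 relations passed (8 libraries, exact permutation test), and 1 (Per3, r = 0.48) had an unadjusted exact p below 0.05.

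**Figure D5:**
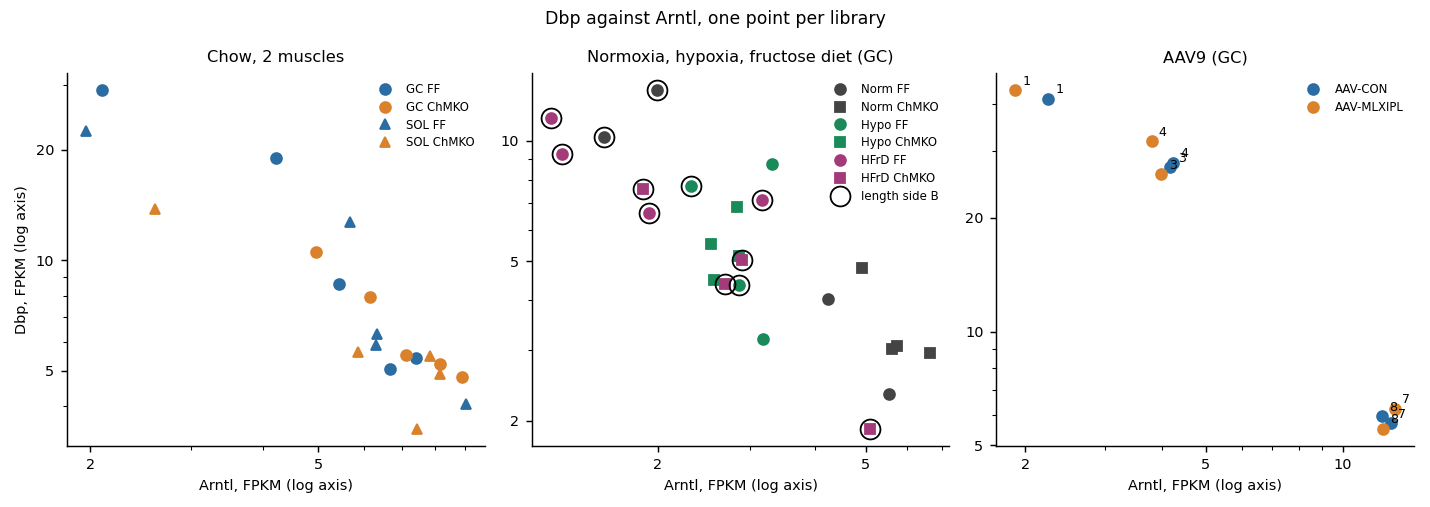
Dbp against Arntl in FPKM on log axes, with 1 point per library, for the chow, the hypoxia and fructose, and the AAV experiments, with a colour or symbol per group and a black ring on side B libraries. Dbp is lower where Arntl is higher in each of the panels, and the AAV points form 2 separate sets.

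Outside the members, genes whose deviations were among the most like those of Arntl over the 4 sets of muscle libraries (54 libraries, 6940 genes with a mean of 1 FPKM or more in each set, mean r of the sets, a description with no test) were Zhx2 (0.81), Mast4 (0.80), Asb2 (0.74) and Ppp1r27 (0.73). Those most like Dbp were Tef (0.84), Ciart (0.78), Tspan4 (0.71), Hlf (0.69) and Coq10b (0.65). Tef and Hlf are the other PAR bZIP factors and Ciart encodes a repressor of ARNTL and CLOCK, all 3 of them in the partner list. The AAV libraries, which fall into 2 separate sets, enter these means. Over the other 3 sets alone, an alternative chosen after seeing the data, the mean r with Arntl was 0.76 for Zhx2, 0.77 for Mast4, 0.71 for Asb2 and 0.70 for Ppp1r27. With Dbp it was 0.80 for Tef, 0.73 for Ciart, 0.63 for Tspan4, 0.59 for Hlf and 0.54 for Coq10b, which had 0.26 in the hypoxia and fructose set.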

How the data were processed

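The deposited tables hold FPKM values per gene, which the authors made by trimming reads with fastp 0.18.0 and aligning them with HISAT2; the submitters' processing notes also name HISAT2 2.1.0, StringTie 1.3.1, Bowtie2 2.2.8, RSEM and the build GRCm39. The C2C12 table does not name its unit, and its values were taken as FPKM. The table of the AAV experiment further holds the authors' means, fold changes and p-values, which were not used. Of rows that share a symbol, the one with the highest mean was kept (Per3 had 2 in the first table). Values were analysed as log2(FPKM + 1) with limma 3.58.1 in R 4.3.3 (lmFit and eBayes with a trend), on the compared groups only and on genes with a mean of 0.5 FPKM or more. A gene was called changed at a Benjamini-Hochberg adjusted p below 0.05 over all genes tested. In the hypoxia and fructose table whole reads were recovered (99.92 to 99.99% of values within 0.05 of a whole read) and tested with voom. The test of muscle by genotype took the mouse as a random effect (consensus correlation 0.06, a single value for all genes). The comparisons of SOL with GC within a genotype were unpaired in the main fit. Relations between genes were tested by permutation within groups in scipy 1.17.1, and the fits were tested on simulated data.

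The 10 members were named in every comparison. Of 6 lists (clock loop partners, PER and CRY turnover, muscle clock outputs, glucocorticoid-responsive, temperature-responsive and immediate early genes), called genes were named, at most the 6 of largest difference per list. A few genes that this rule or the likeness measure would name are not reported here. The members and lists were chosen with earlier results of these data known. GC and SOL libraries of 1 number come from 1 mouse by their labels. Across genes the r of these 10 pairs ran from -0.05 (F/F 69) to 0.34 (F/F 57). Of the GC libraries, 5 were most like the SOL library of their own number, among those of their genotype. The AAV numbers, whose meaning is not given, were taken as pairs because r was positive for all 5 (0.24 to 0.52 across genes). Of the AAV-CON libraries, 4 were most like the AAV-MLXIPL library of their own number. AAV-CON library 4 was more like another one (r = 0.36 against 0.27). A split shared by several numbers can also give a positive r, so these values do not settle whether the numbers mark pairs. The C2C12 numbers were not taken as pairs (-0.08 to 0.19 over 4 pairs).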

Additional observations from a re-analysis of the deposited data

Results flagged for a closer look

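Among 140 combinations of a member and a group, 7 had 1 library set apart from the rest of its group by a gap test that chance alone trips in about 1 in 20 groups. In SOL of ChMKO mouse 59, Per2 was at 4.84 FPKM (next 2.14), Per3 at 1.27 FPKM (next 0.54) and Dbp at 13.8 FPKM (next 5.62), in the mouse whose Arntl was lowest in its group. In SOL of F/F mouse 71, Per2 was at 7.30 FPKM (next 2.09). In GC, Dbp in the first normoxic ChMKO library was at 4.81 FPKM (next 3.07), and Clock in the fourth F/F library on HFrD at 4.99 FPKM (next 3.58), the library with the highest Arntl of that group. In C2C12, Nr1d2 in ChREBP library 4 was at 17.98 FPKM (next 16.77).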

How the results depend on the processing

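No called member changed sign under any alternative run. With the replicate block (the mouse or library number paired), in F/F mice the count of clock genes that differed by muscle went from 0 to 1 (Nr1d1), and in C2C12 from 3 to 2 (Per2 lost, limma adjusted p = 0.0603), while it stayed at 1 in ChMKO mice and at 0 for AAV. Without a filter on low values the count was 1 in place of 4 for ChMKO hypoxia and 1 in place of 3 in C2C12, where more genes entered the adjustment. With all libraries of the table in 1 fit, ChMKO hypoxia had 1. A filter at 5 FPKM left 5 members in the ChMKO diet comparison, with 2 called. Rescaling by median ratio gave 2 (Nr1d1 and Cry2) between the muscles of ChMKO mice and 8 in place of 6 for the ChMKO diet. Leaving out each library in turn gave 0 to 1 clock genes for SOL against GC in F/F (1 without SOL 70), 1 to 2 in ChMKO (2 without GC 60 or SOL 59, Clock added), 1 to 3 for ChMKO hypoxia, 6 to 9 for the ChMKO diet (9 without the second HFrD library) and 1 to 3 for C2C12. Relations to Arntl passed in 8 of 45 (3 of these in the AAV set) without the 2 farthest libraries of each set, in place of 19 (8 of these in the AAV set). The correlations of the AAV set are not given. The same-mouse relation passed in 0 in place of 5 without the 2 farthest mice.

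The fits with length side as a term or within 1 side were chosen after seeing the data, and called 0 members. Over all genes, ChMKO hypoxia called 95, but 6 with no filter, 150 when rescaled and 214 with all libraries in 1 fit, and the F/F diet comparison 0, but 220 and, within side B, 99. F/F hypoxia called 0, but 80 within side B, SOL genotype 3, but 0 at the stricter filter and 9 in 1 fit, and GC genotype 3, but 5 with no filter or a pseudocount of 0.1. With all libraries in 1 fit, F/F hypoxia called 2 and the HFrD genotype comparison 1 in place of 2, and the muscle by genotype test called 2 in place of 1 with no filter. The filter at 5 FPKM, with fewer genes tested, called 3319 in place of 6673 between F/F muscles, 3942 in place of 7575 between ChMKO muscles and 3357 in place of 6867 for the ChMKO diet. Rescaling moved the higher share of calls between SOL and GC from 75.1% to 51.9% in F/F and from 70.7% to 50.9% in ChMKO, that of the ChMKO diet from 30.2% to 52.7% and of ChMKO hypoxia from 28.4% to 38.7%. Per3 rested on as few as 74 reads in a library, where counting error is widest. The causes of these shifts were not tested unless stated.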

Other observations

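Between the muscles, where 50.4% of all genes changed in F/F and 57.9% in ChMKO mice, the lists beside the clock held these changes (limma, adjusted p over all genes). Of 11 muscle genes described as clock outputs, 5 were higher and 2 lower in SOL of F/F mice and 6 and 3 in ChMKO mice. Pfkfb3, which drives glycolysis, was 52.1 FPKM in GC and 3.08 in SOL of F/F mice (log2 difference -3.73), and Tcap, a Z-disc gene, 2029 and 4034 FPKM (0.96). Of 8 glucocorticoid-responsive genes, 2 were lower and 1 higher in F/F and 5 and 1 in ChMKO mice, with Tsc22d3 at -1.31 in F/F. The cold-induced RNA-binding genes Cirbp (0.55) and Rbm3 (0.62) were the 2 temperature-responsive genes called in F/F, both higher in SOL. Of 7 immediate early genes, 2 were higher and 1 lower in SOL of F/F mice and 1 and 2 in ChMKO mice, with median log2 differences of 0.32 and -0.73. Atf3, higher in SOL of both genotypes, was 5.92 FPKM in GC and 45.9 in SOL of F/F mice (2.80), and Nr4a1, lower in both, was 96.5 and 65.2 FPKM (-0.56).

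In C2C12 cells, where 30.5% of all genes changed, 4 output genes rose and 1 fell with ChREBP, led by Tcap (0.72) and Klf15 (-0.50). Of the glucocorticoid-responsive genes 3 rose and 3 fell, with the metallothioneins Mt1 (-0.80) and Mt2 (-0.79) lowest, and 2 temperature-responsive genes fell, Rbm3 (-0.14) and Hsph1 (-0.13). No gene of the 6 lists changed between genotypes in any muscle or condition.

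In the ChMKO diet comparison, where diet and length side cannot be told apart and 64.0% of genes changed, 2 partners were higher and 3 lower on HFrD, as were 2 and 4 turnover genes, 3 and 4 outputs, 2 and 2 glucocorticoid-responsive, 1 and 1 temperature-responsive and 0 and 2 immediate early genes.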
